A study of Mus musculus with 4 samples.

Results

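The interleukin 1 family and its receptors were followed here through 10 genes, taken by symbol from the 31227 genes of the count table: the ligands Il1a, Il1b, Il18 and Il33, the antagonists Il1rn and Il18bp, and the receptor chains Il1r1, Il1r2, Il1rap and Il1rl1. All 10 had enough counts to be tested. RNA had been sequenced from colonic epithelial cells in 2 wild-type (WT) libraries, replicates 1 and 3, and 2 libraries from mice with an epithelial knockout of Smad4 (KO), replicates 1 and 2. Every mouse, WT or KO, was 8 to 10 weeks old and had received 3.5% dextran sulfate sodium (DSS), which injures the colonic epithelium, in its water for 5 days and was killed on day 7 after a return to plain water. Libraries from mice without DSS were not analysed here, so the comparison is between genotypes within colitis. The labels also give a time of 5 days. Neither the driver of the Smad4 deletion nor the number of mice behind a library was given in the sources used here. The p-values therefore measure the spread among the 4 libraries alone, and that spread may be technical.

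Interleukin 1 alpha and beta bind the receptor chain Il1r1, which pairs with the accessory chain Il1rap and signals through Myd88 to NF-kB. Il1rn occupies Il1r1 without signalling, and Il1r2 is a decoy that binds the ligands and lacks a signalling domain. Interleukin 33 is a nuclear alarmin that injured cells release, and Il1rl1 (ST2) is its receptor, with Il1rap again as the partner. Interleukin 18 is held as a precursor by gut epithelium, is cut by caspase 1 and is neutralized by Il18bp. Neutrophils and macrophages are well-known sources of interleukin 1 beta in the inflamed gut, and keratinized epithelia are rich in interleukin 1 alpha and Il1rn.

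Of the 4 ligand genes, 3 were higher in the KO libraries and 1 was lower. Il33 was 10.3-fold higher, Il1b 4.74-fold and Il1a 4.43-fold, as was the decoy receptor Il1r2 at 7.21-fold, whereas Il18 was 1.81-fold lower. The signalling receptor chains Il1r1 and Il1rap differed between genotypes by less than their spread between libraries. In all, 4 members rose, 1 fell and 5 did not pass (edgeR quasi-likelihood test; a call needs a Benjamini-Hochberg p under 0.05, adjusted over all tested genes). Of the 15838 tested genes 15.2% passed, 8.83% as risen and 6.4% as fallen. The members were chosen with earlier results of these data known. The median log2 fold change was 1.0 over the 10 members and 0.01 over all tested genes. The libraries of the genotypes did not overlap for 7 members, against 59.4% of the tested genes. In bulk RNA, fewer cells of a type and less RNA per cell cannot be told apart.

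The 250 bases before the start of transcription are shown for the 3 ligand genes that rose and for the ligand gene that fell, because these are the members whose changes pointed in opposite directions. The sequences are RefSeq's on GRCm38.p6, read 5′ to 3′ on the strand of the gene, and capitals mark a match to 1 of the 4 motifs searched. Il1a lies on chromosome 2, minus strand, and its window is chr2:129309973-129310222. Il1b is its neighbour on the same strand (chr2:129371140-129371389). Il33 lies on chromosome 19, plus strand (chr19:29924863-29925112), and Il18 on chromosome 9, plus strand (chr9:50554450-50554699).
Il1a: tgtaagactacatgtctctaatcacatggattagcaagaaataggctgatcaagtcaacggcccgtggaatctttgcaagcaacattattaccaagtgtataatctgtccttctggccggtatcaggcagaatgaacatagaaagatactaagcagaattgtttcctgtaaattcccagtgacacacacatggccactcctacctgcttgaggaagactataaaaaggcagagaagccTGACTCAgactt
Il1b: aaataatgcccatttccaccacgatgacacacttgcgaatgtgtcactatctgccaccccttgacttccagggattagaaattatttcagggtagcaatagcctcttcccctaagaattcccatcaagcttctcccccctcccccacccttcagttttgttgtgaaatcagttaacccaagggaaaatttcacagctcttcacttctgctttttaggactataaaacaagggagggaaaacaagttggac
Il33: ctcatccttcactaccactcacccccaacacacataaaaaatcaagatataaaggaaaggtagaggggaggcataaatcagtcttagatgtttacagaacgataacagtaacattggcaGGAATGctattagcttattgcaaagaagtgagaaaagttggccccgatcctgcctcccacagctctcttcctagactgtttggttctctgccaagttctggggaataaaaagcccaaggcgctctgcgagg
Il18: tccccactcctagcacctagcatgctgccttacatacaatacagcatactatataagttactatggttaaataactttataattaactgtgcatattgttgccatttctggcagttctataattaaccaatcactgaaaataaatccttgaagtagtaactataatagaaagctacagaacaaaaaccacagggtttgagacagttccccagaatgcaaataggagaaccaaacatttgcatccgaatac

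The motifs, searched on both strands of the window from 250 bases before to 50 bases after the start, were AP-1 (TGANTCA), TEAD (GGAATG), Smad (CAGACA) and the kappaB consensus. An AP-1 match lay 12 bases before the start of Il1a, and a TEAD match lay 131 bases before the start of Il33. The Il1b and Il18 windows held no match to any of the 4, so the 3 risen ligand genes had no motif of this set in common. A later start of Il33 had a TEAD match of its own, 107 bases before it. Over the 15 windows of the 10 genes, 2 held an AP-1 match, 5 a TEAD match, 1 a Smad match and 1 a kappaB match. Among all 32851 windows of the reference 7.81%, 14.7%, 21% and 4.51% held them. The kappaB match, in a window of Il1r1, overlapped a TEAD match. These matches are descriptions of letters and not of binding.

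The libraries held 42577920 to 67927291 counts, and levels are given as CPM, a count divided by its scaled library size and put on a common scale, in which 1 count stood for 0.0150 to 0.0229 CPM. Smad4 itself was at 152 and 180 CPM in the WT libraries and at 51.5 and 41.1 CPM in the KO libraries (edgeR adjusted p = 0.00163), in the direction of the labels. For the marker lists here, the share over all tested genes was 8.83% risen and 6.4% fallen. The 12 colon epithelial markers summed to 28560 to 29000 CPM in WT and 33969 to 34722 CPM in KO. These sums were above those of every other marker list in every library. All 12 were tested, and 6 rose and 1 fell with edgeR. Without Muc2, the most abundant, the sums overlapped between genotypes, at 19253 to 20059 CPM in WT and 19771 to 20434 CPM in KO. Of 12 neutrophil markers 8 rose among 10 tested, with sums of 106 to 135 CPM in WT and 454 to 467 CPM in KO. Without Ly6g, which made up most of that sum and has close paralogues that can share its reads, the sums were 12.3 to 18.3 and 135 to 138 CPM. The neutrophil granule genes Mpo and Camp had no count in any library. Of 12 macrophage and monocyte markers 4 rose and 0 fell with edgeR, 2 were lower at an unadjusted p under 0.05, and 1 fell with DESeq2 and 1 with limma. Their sums overlapped between genotypes, at 179 to 198 CPM in WT and 182 to 188 CPM in KO. Cd14, the most abundant of them, had 159 and 181 CPM in WT and 136 and 134 CPM in KO (edgeR adjusted p = 0.0550), and without it the sums were 16.4 to 19.4 and 48.7 to 51.7 CPM. Of 11 squamous markers 3 rose among 6 tested, with sums of 3.77 to 4.06 CPM in WT and 39.2 to 39.5 CPM in KO, and of 1.67 to 1.97 and 8.47 to 9.88 CPM without Ly6d, the most abundant. The squamous keratin genes Krt5, Krt4 and Krt16 and the envelope gene Sprr3 had no count in any library. Endothelial and B cell markers gave 0 calls among 4 and 2 tested with edgeR, 0 at an unadjusted p under 0.05 and 0 with DESeq2 or limma. The lists for T cells, innate lymphoid cells, fibroblasts and mast cells had 7, 5, 8 and 5 genes tested. With edgeR they gave 1, 1, 2 and 0 risen and 0, 0, 1 and 2 fallen genes, in that order. At an unadjusted p under 0.05, 2, 2, 5 and 0 were higher and 0, 0, 1 and 2 lower. DESeq2 gave 1, 2, 3 and 0 risen and limma 1, 1, 2 and 0, each with 0, 0, 1 and 2 fallen.

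**Figure D1:**
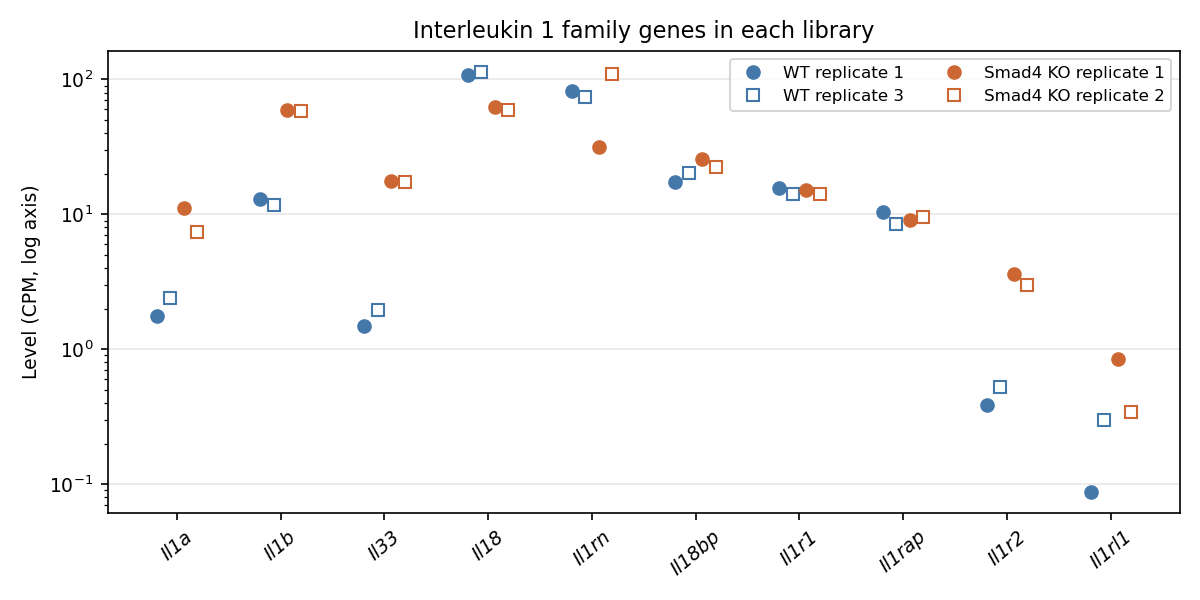
Level of the 10 genes in each of the 4 libraries, in CPM on a log axis; each point is 1 library, filled for the first and open for the second of a genotype. Il1a, Il1b, Il33 and Il1r2 lie higher in both KO libraries than in both WT libraries, Il18 lies lower, and the KO libraries stand far apart for Il1rn (31.5 and 109 CPM).

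Il1b, the main secreted ligand of the family, had 12.9 and 11.8 CPM in WT replicates 1 and 3 and 58.9 and 58.3 CPM in KO replicates 1 and 2. Both KO libraries were above both WT libraries, and within a genotype the libraries differed by no more than 1.10-fold. The log2 fold change was 2.24 (SE 0.101, edgeR adjusted p = 0.000364), the smallest p among the members. Its antisense neighbour Il1bos, which shares 25 exonic bases with it, reached at most 0.195 CPM. The summed neutrophil markers were higher in the same KO libraries, whereas the summed macrophage markers overlapped between genotypes with Cd14 and were higher in KO without it. Their part in the level of Il1b was not tested.

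Il1a, which is held in the cell and acts when released by damage, had 1.78 and 2.41 CPM in WT and 11.2 and 7.36 CPM in KO. The groups did not overlap, but the KO libraries differed 1.51-fold, more than for Il1b or Il33. The log2 fold change was 2.15 (SE 0.295, edgeR adjusted p = 0.00953). Both genes lie on the minus strand of chromosome 2, Il1a at 129299610 to 129309972 and Il1b at 129364570 to 129371139 (GENCODE M21, GRCm38), with 54597 bases between them. Il1a shares 222 exonic bases with Gm14023 on the other strand, a gene that is not among those in the count table. Reads of the pair cannot be told apart if strand was not kept. The summed squamous markers were higher in the same KO libraries, with and without Ly6d. Among the 6 tested genes of that list 3 rose and 3 did not pass, and 4 of the list, Krt5 among them, had no count. Their part in the level of Il1a was not tested.

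Il33 had 1.48 and 1.95 CPM in WT and 17.7 and 17.4 CPM in KO. It showed the largest fold change of the 10 members, and its KO libraries differed by 1.02-fold. The log2 fold change was 3.36 (SE 0.189, 95% interval 2.88 to 3.84, edgeR adjusted p = 0.000665). The gene lies on chromosome 19 at 29925114 to 29960718. Its receptor Il1rl1, carried mainly by type 2 lymphoid cells, mast cells and regulatory T cells, was close to the limit of counting, with 5 and 13 counts in WT and 51 and 23 in KO. That is 0.0881 and 0.298 CPM in WT and 0.848 and 0.345 CPM in KO. The highest WT library and the lowest KO library were close without overlapping, and the change did not pass (log2 fold change 1.64, 95% interval -0.70 to 3.98, edgeR adjusted p = 0.310). Single libraries weighed on this value, which was 0.85 without KO replicate 1, 0.98 without WT replicate 1, 2.14 without KO replicate 2 and 2.73 without WT replicate 3, none of which passed (edgeR adjusted p from 0.212 to 0.831).

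Il18 was the member with the highest level per kilobase of exon in both genotypes and the only member called as fallen. It had 107 and 114 CPM in WT and 63.0 and 59.4 CPM in KO, so both KO libraries lay below both WT libraries, and libraries of a genotype differed by at most 1.07-fold. The log2 fold change was -0.85 (SE 0.0750, edgeR adjusted p = 0.00235). Its binding protein Il18bp had 17.4 and 20.2 CPM in WT and 25.7 and 22.6 CPM in KO. These groups did not overlap, yet the change did not pass (log2 fold change 0.36, 95% interval 0.03 to 0.69, unadjusted p = 0.0389, edgeR adjusted p = 0.142). Il18bp shares 80 exonic bases with Numa1 on the opposite strand, at 212 to 242 CPM, so some of its counts may be those of Numa1.

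The antagonist Il1rn divided the KO libraries. It had 82.4 and 74.2 CPM in WT, 31.5 CPM in KO replicate 1 and 109 CPM in KO replicate 2, so 1 KO library lay below both WT libraries and the other lay above both. The log2 fold change was -0.16 (SE 0.539, 95% interval -1.52 to 1.21, edgeR adjusted p = 0.887). Without KO replicate 1 it was 0.48 (edgeR adjusted p = 0.109), and without KO replicate 2 it was -1.31 and passed as fallen (edgeR adjusted p = 0.0125). The 3.45-fold gap between the KO libraries was unusual for them. Of 10625 tested genes with a mean of at least 5 CPM, 30 (0.282%), Il1rn among them, were as far apart between the KO libraries, and the median gene differed 1.06-fold. The counts of Il1rn were 4674, 3236, 1896 and 7269, so counting error is small beside this gap.

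**Figure D2:**
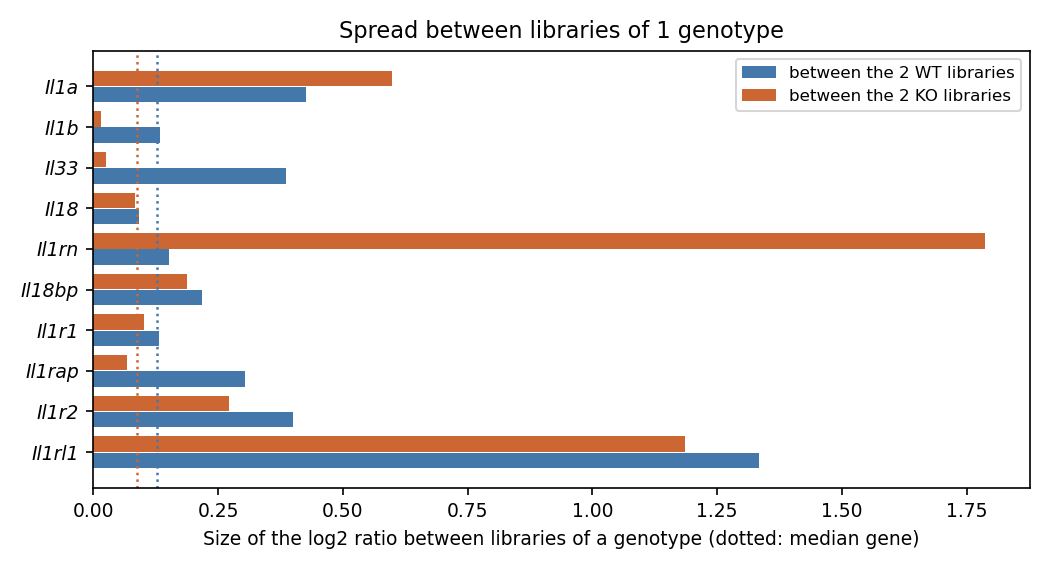
Size of the log2 ratio between the 2 libraries of a genotype for each gene, on log2(CPM + 0.05), with dotted lines at the median of 10625 genes with a mean of at least 5 CPM. Il1rn stands out between the KO libraries (1.79) and Il1rl1, with few counts, in both genotypes (1.33 in WT, 1.19 in KO).

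Among the receptors, Il1r1 had 15.6 and 14.2 CPM in WT and 15.2 and 14.1 CPM in KO. The genotypes overlapped, and the log2 fold change of -0.03 had a 95% interval of -0.33 to 0.28 (edgeR adjusted p = 0.919). The accessory chain Il1rap had 10.4 and 8.44 CPM in WT and 9.10 and 9.53 CPM in KO. Its KO libraries lay between its WT libraries (log2 fold change -0.02, 95% interval -0.43 to 0.39, edgeR adjusted p = 0.955). These intervals leave room for a change of either chain in either direction within their bounds. The decoy Il1r2 rose from 0.388 and 0.527 CPM in WT to 3.61 and 2.98 CPM in KO. The groups did not overlap (log2 fold change 2.85, SE 0.351, edgeR adjusted p = 0.00672), but without KO replicate 1 the call was lost (log2 fold change 2.71, edgeR adjusted p = 0.0571). Il1r2 is carried by neutrophils, whose markers were higher in the same libraries, and their part in the level of Il1r2 was not tested.

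Levels per kilobase divide CPM by the merged length of all annotated exons of a gene. The transcript present can be shorter, by a factor that differs between genes, so an order between genes is approximate. On this measure the levels ran in WT from Il18 (107 CPM per kb) through Il1rn (14.1), Il1b (6.48), Il18bp (6.22), Il1r1 (2.34), Il1a (1.06), Il1rap (0.831), Il33 (0.594) and Il1r2 (0.240) to Il1rl1 (0.0280). The neighbours Il1b and Il18bp overlapped between libraries in WT, as did Il1a and Il1rap, and the other neighbours did not. In KO the order was Il18 (59.4), Il1b (30.7), Il1rn (12.7), Il18bp (7.98), Il33 (6.09), Il1a (4.69), Il1r1 (2.30), Il1r2 (1.73), Il1rap (0.820) and Il1rl1 (0.0865). There Il1rn and Il18bp overlapped, because of the spread of Il1rn, and the other neighbours did not. Per kilobase, Il1b thus stood above Il1rn in both KO libraries and below it in both WT libraries. In KO replicate 2 this order came from the division by length, since in CPM Il1rn (109) was above Il1b (58.3). Il33 stood below Il1r1 and Il1a in WT and above them in KO.

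Ratios within a library set antagonist beside ligand and were formed from CPM + 0.05, per kilobase of merged exons. Whether such a ratio lies above or below 1 depends on these lengths, while its fold difference between libraries does not. Il1rn stood to Il1b as 2.19 and 2.16 in WT and as 0.185 and 0.644 in KO. Without division by length, Il1rn to Il1b was 6.35 and 6.27 in WT and 0.536 and 1.87 in KO replicates 1 and 2. Il1rn stood to Il1a as 16.1 and 10.8 in WT and as 1.0 and 5.25 in KO. Both ratios were lower in each KO library than in each WT library, although the KO libraries disagreed by the gap of Il1rn. The decoy Il1r2 stood to Il1r1 as 0.0933 and 0.135 in WT and as 0.801 and 0.712 in KO. Il18bp stood to Il18 as 0.0555 and 0.0606 in WT and as 0.139 and 0.130 in KO, higher in both KO libraries. Il1rl1 stood to Il33 as 0.0378 and 0.0729 in WT and as 0.0211 and 0.00945 in KO. With 2 libraries against 2, an exact two-sided permutation test cannot go below p = 0.333, and each of the 5 ratios reached that value, so none can pass a threshold of 0.05 in this design.

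**Figure D3:**
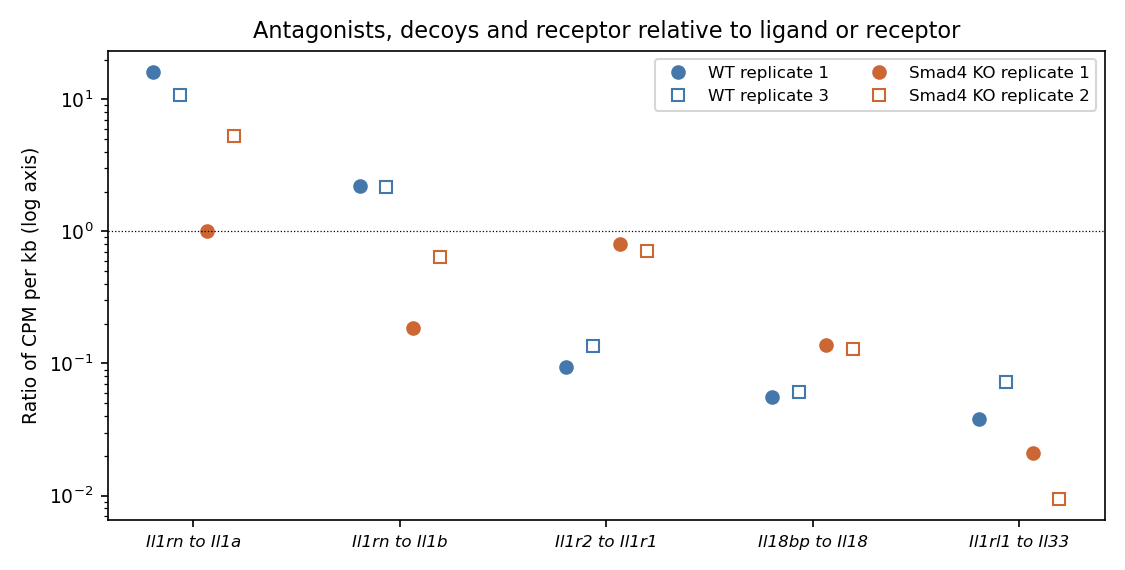
Ratio of the levels per kilobase of 2 genes in each library, on a log axis with a dotted line at 1; filled and open symbols are the first and second library of a genotype. Il1rn to Il1b is above 1 in WT and at 0.185 and 0.644 in KO, and Il1r2 to Il1r1 and Il18bp to Il18 are higher in both KO libraries.

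The table held 11 further genes of the family. Among the 5 with enough counts for a test, 1 rose, 1 fell and 3 missed the threshold (40% called, against 15.2% of all tested genes). This list, too, was chosen with earlier results of these data known. Interleukin 36 gamma (Il1f9), an epithelial ligand, had 0.247 and 0.550 CPM in WT and 2.31 and 3.16 CPM in KO (6.94-fold higher, edgeR adjusted p = 0.0220). Its receptor chain Il1rl2 moved the other way, from 1.48 and 1.9 CPM to 0.266 and 0.255 CPM (6.45-fold lower, edgeR adjusted p = 0.0186). Neither pair of groups overlapped. The interleukin 18 receptor chain Il18r1 had 0.599 and 0.734 CPM in WT against 1.21 and 1.98 CPM in KO, a change that missed the threshold (edgeR adjusted p = 0.131). The inhibitory receptor Sigirr was at 38.1 and 39.7 CPM in WT and 40.8 and 48.8 CPM in KO (edgeR adjusted p = 0.308). Il1f5, Il1f8, Il1f10, Il1rapl1 and Il1rapl2 had no count in any library.

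A group of 6 receptor genes of the family lies together on chromosome 1, all on the plus strand, within 478 kb from 40074079 to 40551705. In that order Il1r2 rose, Il1r1 did not pass, Il1rl2 fell, and Il1rl1, Il18r1 and Il18rap did not pass. Il1r1 and Il1rl2 are 7352 bases apart and Il1rl1 and Il18r1 136 bases apart. The genes called as risen and fallen in this stretch were thus separated by Il1r1, whose level in the genotypes overlapped.

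**Figure D4:**
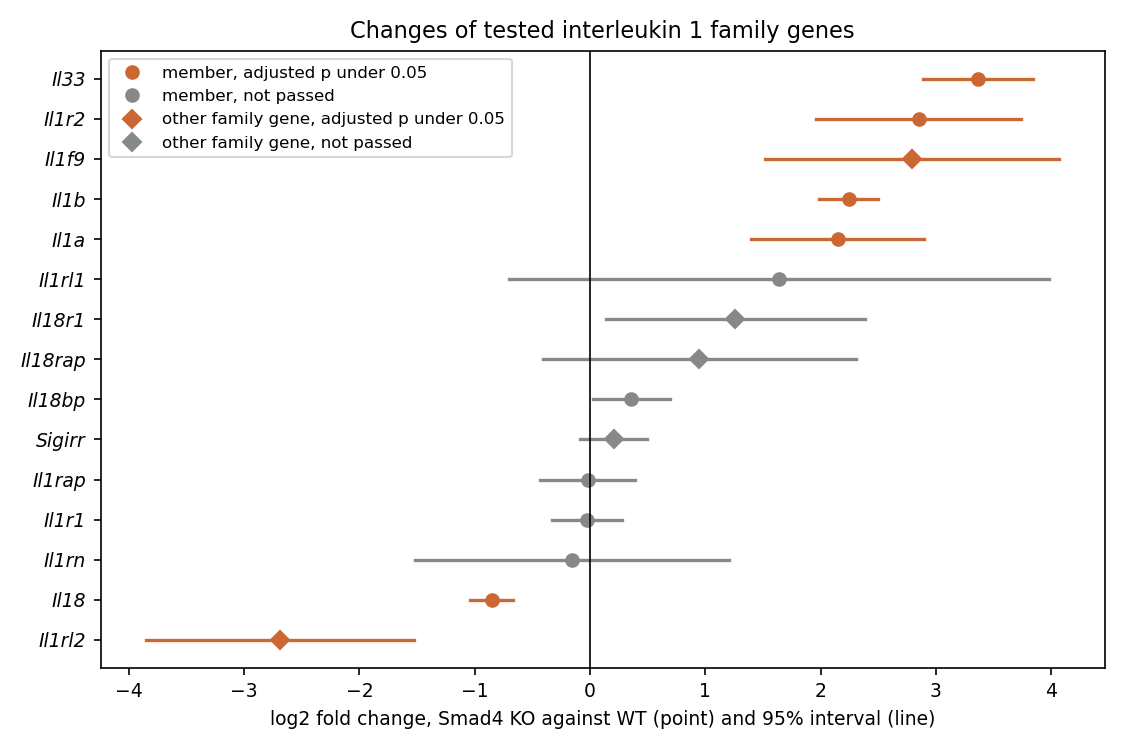
Log2 fold change of KO against WT with its 95% interval for the 10 members (circles) and the 5 other tested genes of the family (diamonds); orange marks an adjusted p under 0.05. Il33, Il1r2, Il1f9, Il1b and Il1a lie to the right, Il18 and Il1rl2 to the left, and the intervals of Il1rn and Il1rl1 are wide.

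The genes that process or release the ligands changed in both directions. Among 21 tested genes 6 rose, 2 fell and 13 missed the threshold, with a median log2 fold change of 0.07. The share called was 38.1%, against 15.2% of all tested genes, in a list chosen with earlier results of these data known. Casp8, a protease that can cut interleukin 1 beta, rose 1.68-fold (124 ± 1.48 to 208 ± 13.6 CPM, SD, n = 2, edgeR adjusted p = 0.00307). The pore-forming Gsdmd, through which interleukin 1 beta and interleukin 18 leave the cell, rose 1.37-fold (255 ± 1.13 to 351 ± 5.91 CPM, SD, n = 2, edgeR adjusted p = 0.00567). The epithelial sensor Nlrp6 fell 1.39-fold (424 ± 7.92 to 305 ± 7.37 CPM, SD, n = 2, edgeR adjusted p = 0.00532). The mast cell protease Cma1 fell from 2.86 and 1.47 CPM to 0.0665 and 0.120 CPM (edgeR adjusted p = 0.00978). Casp1, the converting enzyme of both precursors, named here for its role after its values were seen, was at 158 and 135 CPM in WT and 158 and 149 CPM in KO, with overlapping genotypes (edgeR adjusted p = 0.700). The neutrophil proteases Elane, Ctsg and Prtn3 had no count in any library.

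Of the signal transduction genes downstream of the receptors, a share near that over all tested genes was called (17.4% against 15.2%). Among 23 tested genes 3 rose, 1 fell and 19 missed the threshold, with a median log2 fold change of 0.11. The NF-kB subunit Rel rose 3.0-fold, from 16.7 and 18.1 CPM to 52.0 and 52.7 CPM (edgeR adjusted p = 0.000778). The adaptor Myd88 rose 1.27-fold and the ubiquitin ligase Traf6 1.33-fold (edgeR adjusted p = 0.0457 and 0.0418), and the ubiquitin ligase Peli1 fell 1.29-fold (edgeR adjusted p = 0.0312).

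The next list held genes that interleukin 1 induces through NF-kB, among other signals. Among 23 tested genes 12 rose, 0 fell and 11 missed the threshold with edgeR, with a median log2 fold change of 1.57. The share called was 52.2%, against 15.2% of all tested genes, in a list chosen with earlier results of these data known. At an unadjusted p under 0.05, 1 of the 23 genes was lower, and 0 fell with DESeq2 or limma. Nos2, which makes nitric oxide, rose 7.65-fold (87.6 ± 2.67 to 669.6 ± 9.64 CPM, SD, n = 2, edgeR adjusted p = 4.92e-05). The neutrophil attractant Cxcl5 rose 16.5-fold, S100a9 11.0-fold and the RNA-degrading feedback enzyme Zc3h12a 2.30-fold (edgeR adjusted p = 0.000289, 0.000434 and 0.000609). S100a8 and S100a9 also stand on the neutrophil list, so their rise counts in both. The NF-kB inhibitor Nfkbia, named for its role after its values were seen, was at 72.9 and 77.3 CPM in WT and 76.7 and 76.0 CPM in KO (edgeR adjusted p = 0.863).

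Of 13 genes linked to the type 2 response, in which interleukin 33 takes part, 5 could be tested and 4 of these rose. The share called was 80%, against 15.2% of all tested genes, in a list chosen with earlier results of these data known. The part of interleukin 33 in their levels was not tested. The receptor chain Il4ra rose 3.18-fold (76.1 ± 4.61 to 242 ± 0.395 CPM, SD, n = 2), the growth factor Areg 2.93-fold, the interleukin 13 receptor chain Il13ra1 1.36-fold and the interleukin 5 receptor chain Il5ra 14.8-fold (edgeR adjusted p from 0.000312 for Il4ra to 0.00956 for Il13ra1). The other tested gene, Retnlb, which codes for a goblet cell protein and was the most abundant of the list, had 1502 and 1666 CPM in WT and 1393 and 1321 CPM in KO. Its groups did not overlap, and it did not pass with edgeR (adjusted p = 0.0835) but was called as fallen with DESeq2. The cytokines Il5 and Il9 had no count in any library, and Il13 and Il4 had too few to be tested.

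**Figure D5:**
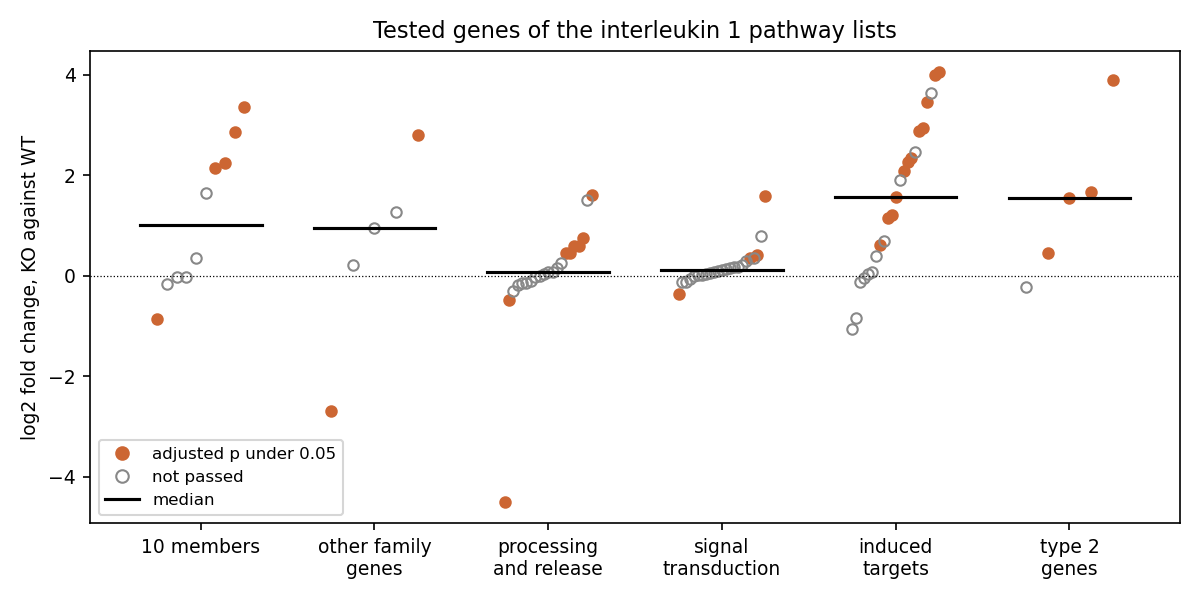
Log2 fold change of every tested gene in the 6 lists, with filled points for an adjusted p under 0.05 and a bar at the median. The medians are 1.0 for the members, 0.07 for processing, 0.11 for signal transduction, 1.57 for induced targets and 1.55 for the type 2 genes; the lists were chosen with earlier results known.

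The tested genes with the pattern nearest to that of Il1b over the 4 libraries, by Euclidean distance of centred log2(CPM + 1) among 10625 genes with a mean of at least 5 CPM, were Plaur (distance 0.0925), Cxcl2 (0.109) and Hoxb7 (0.137). Plaur, the urokinase receptor, had 9.87 and 9.75 CPM in WT and 48.6 and 49.1 CPM in KO. Cxcl2, a neutrophil attractant, had 5.04 and 4.10 CPM in WT and 23.9 and 22.3 CPM in KO. Those nearest to Il18 were Gm20632 (0.0302), the sialyltransferase gene St3gal6 (0.0385) and the folate hydrolase gene Ggh (0.0504), each lower in both KO libraries. St3gal6 had 88.2 and 91.2 CPM in WT and 50.1 and 47.7 CPM in KO. With 4 libraries in 2 genotypes, such likeness mostly records the size of the difference between genotypes.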

How the data were processed

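The members and gene lists were chosen with earlier results of these data known. The authors deposited whole-number counts per Ensembl gene for 4 libraries, made from total RNA with random hexamer priming, per the labels' protocols. FastQC 0.19.7, HISAT2 2.1.0, SAMtools 1.9 and StringTie 1.3.3b on GRCm38 (mm10) are named in the submitters' processing notes. The sources used here name no counting tool, annotation or strand setting, and overlapping genes are therefore uncertain. GENCODE M21 named 31207 of 31227 IDs and gave merged exon lengths. Columns were matched to samples by title. Within each genotype the 2 libraries were distinct beyond sampling noise (mean chi-square per gene 37.6 for WT and 31.0 for KO, against about 1).

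Of the 19618 genes counted at least once, 15838 passed filterByExpr. After TMM scaling, edgeR 4.0.16 under R 4.3.3 fitted genotype alone (glmQLFit, glmQLFTest). The procedure was also run on counts simulated from the levels and spread of these data. Such a run cannot show whether the libraries came from separate mice. The SE is the log2 fold change over the square root of F, and 95% intervals use the t distribution of the fit. Named beside the members are Smad4, up to 4 genes of smallest p from each pathway list, the most abundant gene of some marker lists, and the 3 genes nearest in pattern to the risen and the fallen member of smallest p. Other genes are named after their values were seen, for their role, for an overlap with a member, for their place beside members on a chromosome, or for having no count. Alternatives were 3 scalings (DESeq2 size factors, upper quartile, library totals), no filter, at least 1 CPM in 2 libraries, limma-voom (limma 3.58.1), DESeq2 1.42.0, a robust fit and leaving out each library in turn.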

Additional observations from a re-analysis of the deposited data

How the results depend on the processing

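With 5 members called, 4 of them risen, the 12 alternatives gave 4 to 6 called and 3 to 4 risen. The number of fallen members ranged from 1 to 2 when a library was left out, the second being Il1rn without KO replicate 2. Il1a, Il1b, Il18 and Il33 kept their direction and call in every alternative (highest edgeR, DESeq2 or limma adjusted p 0.0466, 0.00441, 0.0285 and 0.00654), and Il1r2 lost its call without KO replicate 1. The sign of 3 members that did not pass turned: Il1rn to 0.48 without KO replicate 1, Il1r1 to 0.029 without WT replicate 1 and 0.025 without KO replicate 2, and Il1rap to 0.13 without WT replicate 1 and 0.018 without KO replicate 1 (log2 fold changes). Leaving out a library gave ranges of -1.31 to 0.48 for Il1rn, -0.087 to 0.029 for Il1r1 and -0.16 to 0.13 for Il1rap; the cause was not tested. Il1rl1 was not tested under the filter of 1 CPM in 2 libraries. Over all genes 2412 were called, and 975 to 2573 when a library was left out, 978 of them without KO replicate 1 and 975 without KO replicate 2. Leaving out a library leaves 1 sample in a group, which is then assumed to vary like the other group. No paired analysis was possible because the genotypes share only replicate number 1. Depth limits Il1rl1 most, with 5 counts in the poorest library.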
